A study of Drosophila melanogaster with 6 samples.

Results

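The cytosolic chaperonin CCT, also called TRiC, is built from 8 different but related subunits, and the genes of all 8 were examined here in larvae of Drosophila melanogaster with and without a PiggyBac insertion in CG1603. The members were the rows T-cp1 (CCT1), CG7033 (CCT2), Cctgamma (CCT3), CG5525 (CCT4), Cct5 (CCT5), Tcp-1zeta (CCT6), Tcp-1eta (CCT7) and CG8258 (CCT8). They were chosen by name, with earlier results of these data known. They make 8 of the 16727 genes in each file. CG8351 is an older name of Tcp-1eta and had no row of its own. Poly(A) RNA of whole larvae of the second instar was sequenced from 3 wt samples and 3 CG1603PBac samples, which the labels name biological replicates, with both genotypes collected at the same age after egg laying. The labels describe the wt group only as WT. The CG1603PBac larvae were homozygous for PBac[SAstopDsRed]LL06826, an insertion with splice and stop signals and an eye-driven DsRed marker. The study had backcrossed that chromosome to w1118 and picked homozygotes by the absence of a GFP-marked CyO balancer, and homozygotes stop growing at the second instar and die as larvae. How many larvae went into each sample is not stated in the sources used here.

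The chaperonin stacks its subunits in a double ring, each ring holding one copy of each subunit, and folds newly made proteins inside the closed cavity in cycles of ATP hydrolysis. Actins and tubulins are its best known clients, together with proteins of the WD40 repeat family. In yeast, CCT1, CCT2, CCT4 and CCT5 carry most of the ATP binding and hydrolysis, and CCT3, CCT6, CCT7 and CCT8 form the side of the ring with weaker nucleotide use. The genes lie apart in the fly genome. In dm6 coordinates, CCT1 (FBgn0003676) lies at 3R:22489105-22491439 on the minus strand, CCT3 (FBgn0015019) at 3R:16647605-16649978 on the plus strand and CCT7 (FBgn0037632) at 3R:8801564-8806234 on the plus strand. CCT2 (FBgn0030086) lies at X:9089513-9092826 and CCT6 (FBgn0027329) at X:15746648-15748971, both on the plus strand. CCT4 (FBgn0032444) lies at 2L:12690336-12692934 on the minus strand. The remaining genes share a chromosome arm with CG1603, where CCT8 (FBgn0284436) lies at 2R:8904844-8906990 on the minus strand, 1.39 Mb from CG1603, and CCT5 (FBgn0010621) at 2R:12174802-12177516 on the plus strand, 4.66 Mb from it. All are protein-coding genes with merged exons of 1904 to 2165 bp, of which 1599 to 1671 bp are coding. Exons of 6 members met no other gene. EndoG on the opposite strand overlapped 4.39% of the exons of CCT5, and CG9839 on the opposite strand overlapped 0.509% of those of CCT7.

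All 8 subunit genes were lower in CG1603PBac larvae. The mutant kept between 37.2% and 49.4% of the wt level of each subunit, a fall of between 2.03-fold and 2.69-fold. In the quasi-likelihood test of edgeR no subunit had an adjusted p above 2.06e-10. Of the 11306 genes tested 69.7% passed an adjusted p of 0.05 in either direction, with 34.9% lower, 34.8% higher and 15.0% lower by more than 2-fold, as all 8 subunits were. The 8 subunits had a median log2 fold change of −1.28, and the same median over all genes tested was 0.06, with quartiles of −0.65 and 0.81. In 8 of 8 subunits every mutant library lay below every wt library, which held for 36.3% of all genes tested. In whole larvae, fewer cells of a type and less RNA per cell cannot be told apart.

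The libraries held from 27100927 to 36016914 gene counts, and 30.9% to 31.8% of reads did not align in CG1603PBac libraries against 8.39% to 9.09% in wt libraries. Levels are CPM, the counts of a gene scaled to a fixed library size with TMM, a method that sets the libraries level over the bulk of genes. The scaling bears on the size of the fall. When library totals replaced TMM, the median over all genes shifted up by 0.39 on the log2 scale, from 0.06 to 0.45, and 68.7% of calls were then higher against 49.9% with TMM. All 8 subunits still passed as lower (22.9% of all genes did, and 50.1% passed as higher), with log2 fold changes between −1.03 and −0.62 and a median of −0.89, but only CCT7 was lower by more than 2-fold (8.18% of all genes were). A change of scaling moves all genes by nearly the same amount, so that the median of the subunits set against that of all genes, −1.34, is the same under both by construction. The counts of CG1603 were higher in the mutant (log2 change 0.57 ± 0.13, SE; edgeR, adjusted p = 3.62e-04) and, being summed over all exons, do not check the genotype.

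**Figure D1:**
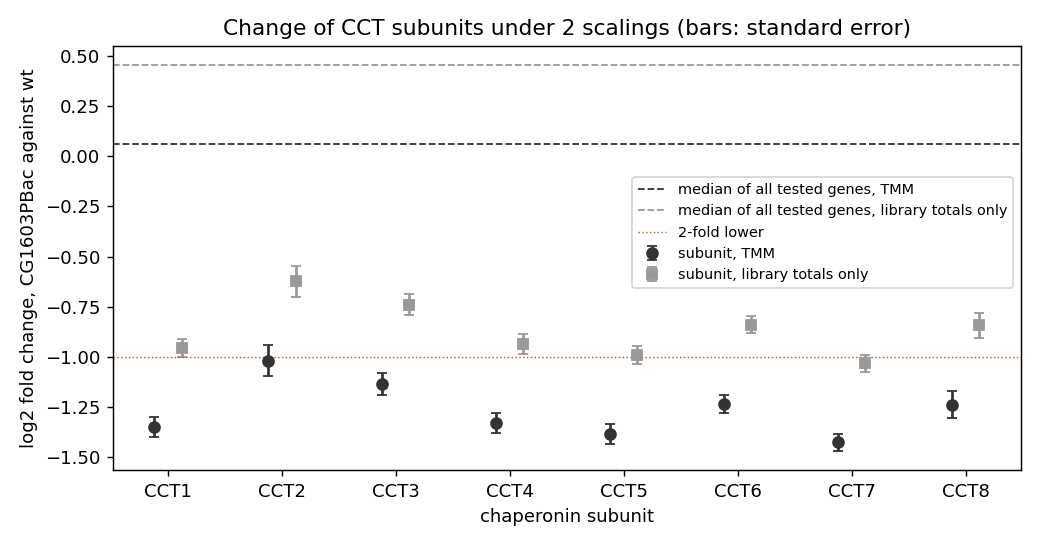
Log2 fold change of each CCT subunit in CG1603PBac against wt larvae (n = 3 libraries each), with TMM (circles) and with library totals only (squares); bars are standard errors and dashed lines the median of all 11306 genes tested, with a dotted line at a 2-fold fall. The 8 subunits lie between −1.43 and −1.02 with TMM and between −1.03 and −0.62 with library totals, in each case below the median of all genes.

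Among the subunits with most of the ATPase activity in yeast, CCT5 fell the furthest. Cct5 (CCT5) stood at 578, 586 and 547 CPM in wt libraries 1 to 3 and at 213, 231 and 212 CPM in CG1603PBac libraries. Every wt library was thus more than 2 times as high as any mutant library, and the change of −1.38 ± 0.05 on the log2 scale (SE) had an adjusted p of 2.07e-16 in edgeR. T-cp1 (CCT1) stood at 460, 475 and 440 CPM in wt and at 173, 179 and 188 CPM in the mutant. Its groups were as far apart, with a log2 change of −1.35 ± 0.05 (SE; edgeR, adjusted p = 4.44e-16). CG5525 (CCT4) stood at 399, 425 and 394 CPM in wt and at 153, 166 and 165 CPM in the mutant, which makes a log2 change of −1.33 ± 0.05 (SE; edgeR, adjusted p = 9.61e-16). Wt replicate 2 was the highest library for each of these genes. CG7033 (CCT2) was the least abundant subunit and the one that fell least, with 137, 139 and 112 CPM in wt and 61.3, 63.7 and 66.7 CPM in the mutant. Wt replicate 3 stood below the other wt libraries but well above the mutant ones, and the change of −1.02 ± 0.08 on the log2 scale (SE) had an adjusted p of 2.06e-10 in edgeR. CCT2 lay close to a 2-fold change, which it no longer reached without wt replicate 1, wt replicate 2 or CG1603PBac replicate 1, and its log2 fold change ran from −1.13 without wt replicate 3 to −0.97 without wt replicate 2, with the call kept each time.

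On the side of the ring with weaker nucleotide use in yeast, CCT7 fell the furthest and CCT3 the least. Tcp-1eta (CCT7), the most abundant subunit, stood at 624, 660 and 633 CPM in wt and at 241, 233 and 239.5 CPM in the mutant. The replicates of each genotype lay within a narrow band, and the change of −1.43 ± 0.04 on the log2 scale (SE) had an adjusted p of 2.51e-17 in edgeR. Tcp-1zeta (CCT6) stood at 520, 545 and 504 CPM in wt and at 222, 223 and 223 CPM in the mutant, which makes a log2 change of −1.23 ± 0.04 (SE; edgeR, adjusted p = 5.09e-16). Its mutant libraries hardly differed, with a coefficient of variation of 0.340%. CG8258 (CCT8) stood at 289, 307 and 250.1 CPM in wt and at 128, 113 and 118 CPM in the mutant. Wt replicate 3 was again the lowest wt library, and the change of −1.24 ± 0.07 on the log2 scale (SE) had an adjusted p of 6.13e-13 in edgeR. Cctgamma (CCT3) stood at 344, 375 and 324 CPM in wt and at 162, 161 and 153 CPM in the mutant, which makes a log2 change of −1.13 ± 0.05 (SE; edgeR, adjusted p = 6.12e-14). The 2 sides of the ring overlapped in their changes, from −1.38 to −1.02 for CCT1, CCT2, CCT4 and CCT5 and from −1.43 to −1.13 for the others. Replicates were close for most subunits. The coefficient of variation of CPM ran from 2.95% to 11.9% in wt, with a median of 4.0%, and from 0.340% to 6.16% in the mutant, with a median of 4.21%. Over the 6366 tested genes with a mean of at least 20 CPM the median was 6.81% in wt and 4.78% in the mutant.

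Although the chaperonin takes up its subunits in equal number, their transcripts were not equally abundant. Per kb of merged exons, the wt level was highest for CCT7 at 325 ± 9.60 CPM per kb, and CCT5 followed at 288 ± 10.5, CCT6 at 272 ± 10.8, CCT1 at 231 ± 8.89 and CCT4 at 212 ± 8.56 CPM per kb (SD, n = 3). CCT3 at 161 ± 11.9, CCT8 at 148 ± 15.4 and CCT2 at 61.0 ± 7.28 CPM per kb (SD, n = 3) came last. The wt libraries of CCT5 and CCT6 overlapped, as did those of CCT3 and CCT8, and the other neighbours in this order did not. CCT7 was thus 5.33 times as abundant as CCT2 in wt, or 4.85 times per kb of coding sequence.

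In CG1603PBac larvae the order was nearly the same. CCT7 came first at 121 ± 2.27 CPM per kb, then CCT6 at 116 ± 0.394, CCT5 at 110.3 ± 5.29, CCT1 at 90.8 ± 3.82 and CCT4 at 84.3 ± 3.90 CPM per kb (SD, n = 3). CCT3 at 73.2 ± 2.20, CCT8 at 62.9 ± 3.87 and CCT2 at 30.1 ± 1.27 CPM per kb (SD, n = 3) closed the order. CCT5 and CCT6 exchanged places but overlapped in both genotypes, and no other neighbours overlapped in the mutant. The span from CCT7 to CCT2 was 4.02 times, against 5.33 times in wt.

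**Figure D2:**
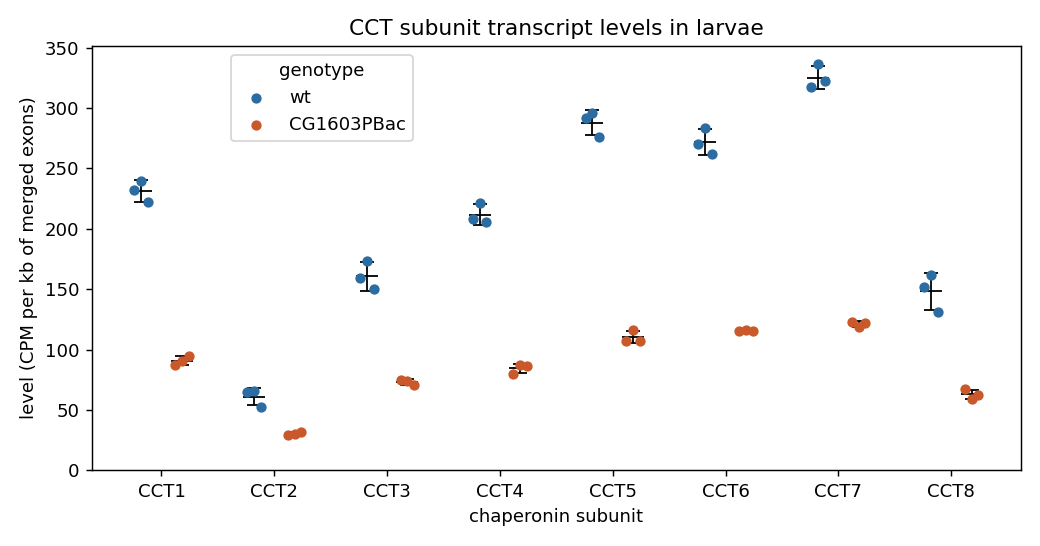
Level of each CCT subunit in CPM per kb of merged exons in each wt and CG1603PBac library; points are libraries, horizontal marks the mean of 3 and bars the SD. The mutant libraries lie below the wt libraries for all 8 subunits, CCT7 is highest at 325 and 121 CPM per kb and CCT2 lowest at 61.0 and 30.1 CPM per kb.

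To ask whether the subunits changed alike, each subunit was set against the geometric mean of all 8 in the same library, a ratio that no scaling between libraries can move. That mean includes the subunit itself, so that rises of some subunits must be matched by falls of others. Relative to the complex, CCT2 was higher in the mutant by 0.25 and CCT3 by 0.13 on the log2 scale. CCT7 fell by 0.16, CCT5 by 0.12 and CCT1 by 0.09 on the same scale. For these 5 subunits the genotypes did not overlap, and the exact two-sided permutation test gave p = 0.1, the smallest value that 3 against 3 libraries allow (adjusted p = 0.16 over the 8 subunits). This permutation test therefore cannot pass a threshold of 0.05 here, and no other test of these ratios was run. CCT4 (−0.07, exact p = 0.2), CCT6 (0.03, exact p = 0.3) and CCT8 (0.03, exact p = 0.8) overlapped between the genotypes. The least abundant subunit, CCT2, made up 3.59 ± 0.301% of the summed CPM per kb of the 8 subunits in wt and 4.38 ± 0.165% in the mutant (SD, n = 3). The most abundant, CCT7, made up 19.2 ± 0.607% and 17.6 ± 0.432% (SD, n = 3). All of these differences were small beside the fall of the whole group, whose summed level went from 3356 ± 155 to 1362 ± 9.14 CPM (SD, n = 3). The subunits held 0.293 ± 0.0104% of all gene counts in wt and 0.156 ± 0.00119% in mutant libraries (SD, n = 3).

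**Figure D3:**
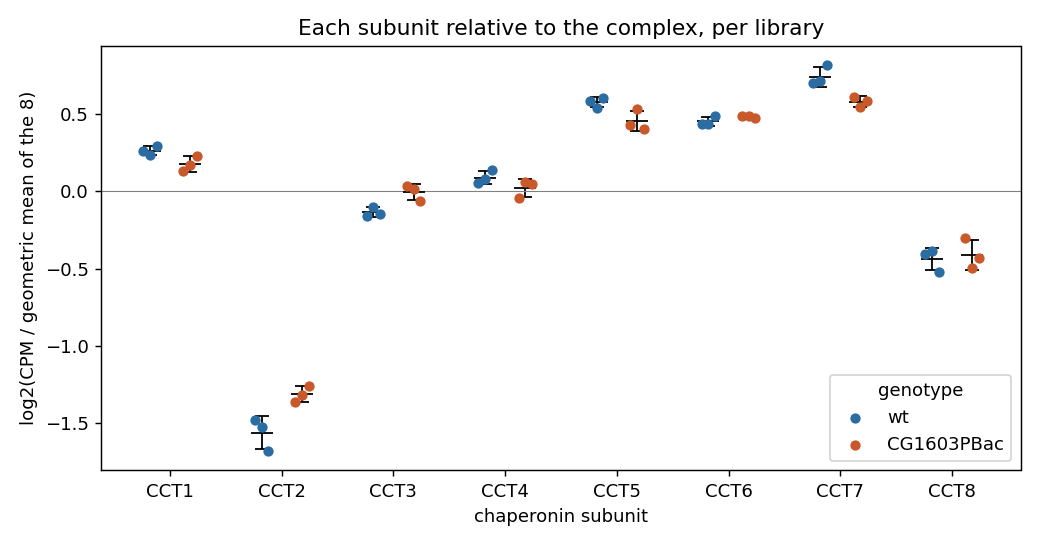
Log2 ratio of each subunit's CPM to the geometric mean of the 8 subunits in the same library; points are libraries, horizontal marks the mean of 3 and bars the SD. CCT2 and CCT3 lie higher in CG1603PBac than in wt libraries and CCT1, CCT5 and CCT7 lower, with no overlap, and all shifts stay within 0.25.

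The arms that hold the members had median log2 fold changes close to that of all genes, 0.05 on 2L, 0.02 on 2R, −0.002 on 3R and 0.11 on X. Of the 16 tested genes that flank the members on either side, 5 fell, 5 rose and 6 did not pass, which is close to the shares over all genes (34.9% lower and 34.8% higher). Their median was −0.01, and 1 of them fell further than the subunit beside it. That gene was CG8239 (−1.30), next to CCT6 (−1.23).

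Prefoldin hands unfolded actin and tubulin chains to the chaperonin, and its genes were lower as well. All 7 listed genes, the 6 subunits and the prefoldin-like gene uri, fell, where 34.9% of all genes did. Their median log2 change was −1.07, or −0.68 with library totals. CG10635 (Pfdn4) changed by −1.55, CG7770 (Pfdn6) by −1.19, CG13993 (Pfdn1) by −1.16 and CG7048 (Pfdn5) by −1.07, which put these 4 past a 2-fold change. The others were mgr (the prefoldin 3 subunit) at −0.91, uri at −0.80 and the Pfdn2 gene at −0.55. The most abundant of them, Pfdn2, went from 169 ± 4.67 to 116 ± 1.30 CPM, whereas CG7048 went from 133 ± 5.68 to 63.6 ± 3.12 CPM (SD, n = 3). The prefoldin list went from a summed level of 505 to 512 CPM in wt libraries to 273 to 283 CPM in mutant ones. The ratio of summed CCT to summed prefoldin was 0.744 times as high in the mutant as in wt, a log2 difference of −0.43, and its libraries did not overlap (exact permutation test, p = 0.1, adjusted p = 0.117 over 7 such ratios, again the smallest p possible before adjustment).

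Other helpers of the same folding route gave smaller values. Over all genes tested, 34.9% passed as lower and 34.8% as higher with TMM, or 22.9% and 50.1% with library totals. Phosducin-like proteins bind the chaperonin and modulate its work on clients. Of the 3 genes on that list, viaf changed by −0.54 and CG4511 by −0.77, both past the test, and CG7650, at 5.11 ± 1.78 CPM in wt and 7.28 ± 1.01 CPM in the mutant (SD, n = 3), had a value of 0.51 (adjusted p = 0.0959 from edgeR) that passed as higher with library totals (0.91). Tubulin cofactors take over tubulin chains once the chaperonin has released them. Here TBCB (−0.45) and CG7261 (Tbcd, −0.31) passed as lower and CG1890 (Tbca, −0.13) and Tbce (−0.05) did not pass. With library totals none of these 4 passed as lower. CG1890 (0.26) and Tbce (0.34) then passed as higher, close to the share over all genes, and TBCB had −0.06 and CG7261 0.085. The call of CG7261 was also lost without wt replicate 1 (−0.20) or CG1603PBac replicate 3 (−0.27).

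Actin transcripts were lower too, and those of the tubulins were mixed. All 6 actin genes fell, where 34.9% of all genes did, with log2 fold changes from −2.07 for Act88F to −1.55 for Act5C. Act5C, a cytoplasmic actin, went from 13363 ± 1363 to 4564 ± 111 CPM (SD, n = 3). Act88F and Act79B had few reads. Act88F went from 1.98 ± 0.221 to 0.467 ± 0.245 CPM and Act79B from 2.32 ± 0.271 to 0.748 ± 0.331 CPM (SD, n = 3). The muscle actins Act57B (−1.84) and Act87E (−1.87) and the cytoplasmic Act42A (−1.70) fell by similar amounts, and Act79B had −1.64, a call that was lost with library totals (−1.24) and without CG1603PBac replicate 2 (−1.51) or replicate 3 (−1.42). The ratio of summed CCT to summed actin transcripts was 1.36 times as high in the mutant as in wt, with no overlap between libraries (log2 difference 0.44, exact p = 0.1). Most of the actin sum was Act57B, at 27304 ± 1730 CPM in wt (SD, n = 3) beside a summed 40411 to 46775 CPM in wt libraries. Among the tubulins, 4 of 10 were lower and 3 higher, close to the 34.9% and 34.8% of all genes. The most abundant alpha and beta tubulins were among the lower ones. These were alphaTub84B, named here for its abundance, at −1.52 (4677 ± 186 to 1635 ± 18.7 CPM, SD, n = 3) and betaTub56D at −1.56. The less abundant alphaTub84D had −1.66. Actin genes share long stretches of sequence, as do alphaTub84B and alphaTub84D, so that the split of reads within those families is uncertain. The higher ones were alphaTub85E (0.18), also named for its abundance, betaTub60D (0.24) and alphaTub67C. The level of alphaTub85E went from 614 ± 49.7 to 694 ± 27.9 CPM (SD, n = 3). The gene alphaTub67C had 0, 4 and 0 counts in wt and 14, 13 and 28 in the mutant. Its call was lost when any of 5 libraries, all but wt replicate 2, was left out (adjusted p from 0.0617 to 0.131 in edgeR). The log2 ratio of summed CCT to summed tubulin transcripts lay between −1.76 and −1.67 in wt and between −1.75 and −1.70 in the mutant, so that the genotypes overlapped, with a difference of −0.02 (exact p = 0.7). Most of the tubulin sum, 10456 to 11336 CPM in wt libraries, was alphaTub84B and betaTub56D (4791 ± 207 CPM in wt, SD, n = 3).

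Genes of WD40 proteins that depend on the chaperonin gave values of both signs. On that list of 9 genes 4 fell, 2 rose and 3 did not pass, and the median log2 change was −0.13, beside 34.9% of all genes lower and 34.8% higher. With library totals 1 fell and 6 rose, where 22.9% of all genes fell and 50.1% rose. The anaphase activator gene fzy, a Cdc20 homolog, went from 4.63 ± 0.990 to 0.997 ± 0.195 CPM (SD, n = 3), with a log2 change of −2.21. Its relative rap (fzr, the Cdh1 homolog) changed by −0.42, a call that was lost with library totals (−0.03). The G protein beta genes Gbeta76C (1.55) and Gbeta5 (1.14) rose. Gbeta76C had few reads, with 82, 16 and 110 counts in wt and 257, 258 and 214 in the mutant. Gbeta13F was the most abundant of the G beta genes on the list. It stood at 323 ± 11.4 CPM in wt and 321 ± 4.55 CPM in the mutant (SD, n = 3), with a value of −0.01 that did not pass.

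**Figure D4:**
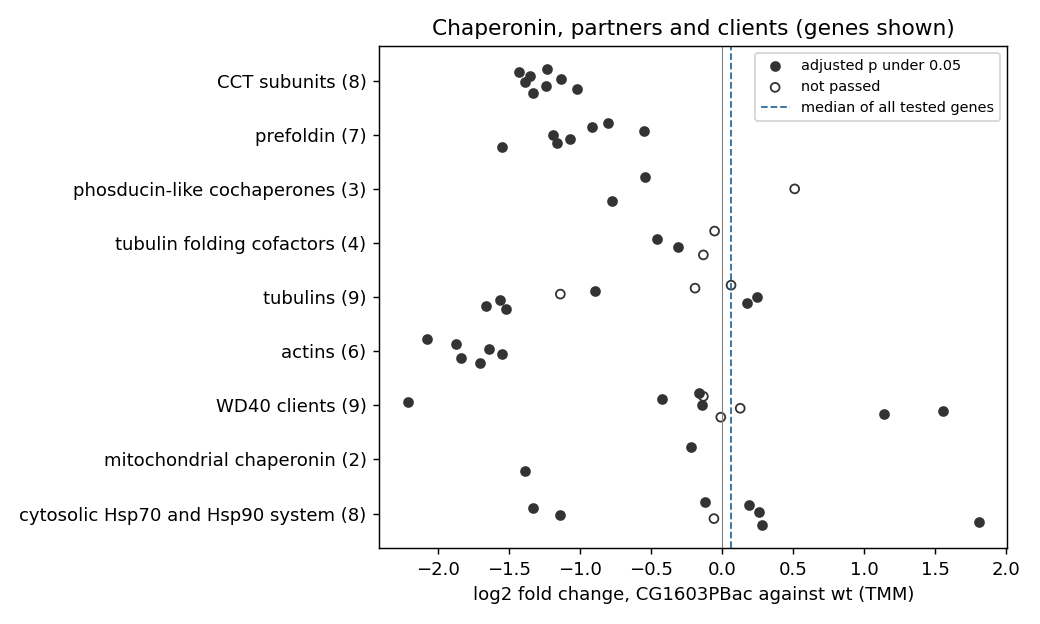
Log2 fold change with TMM, CG1603PBac against wt, of single genes in the chaperonin, its cochaperones, its client families and other chaperone systems, with the number of genes plotted in brackets; filled points passed an adjusted p of 0.05 in edgeR, and the dashed line is the median of all genes tested. The 8 CCT and 7 prefoldin genes and the 6 actins all lie below 0, while tubulins, WD40 proteins and the Hsp70 and Hsp90 system lie on both sides. Genes not tested are left out, as are 3 tested genes with few counts, alphaTub67C (3.35), Hsp60C (−6.25) and CG9920 (1.76). Other tested genes with few counts, among them betaTub85D, gammaTub37C, Act88F and Act79B, are shown.

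Not all chaperones followed the chaperonin. Hsp60 (Hsp60A), the mitochondrial relative of CCT, went from 1020.0 ± 45.3 to 879 ± 26.2 CPM (SD, n = 3), with a log2 change of −0.21 ± 0.04 (SE; edgeR, adjusted p = 8.99e-05) that turned to 0.18 with library totals. The ratio of summed CCT to Hsp60, which does not depend on scaling, was 0.471 times as high in the mutant as in wt, a log2 difference of −1.09 with no overlap (exact p = 0.1). CG11267, which encodes the small partner of Hsp60, changed by −1.39. Hsp60C had 51, 58 and 39 counts in wt and 0, 1 and 1 in the mutant, and CG9920 had 23, 1 and 9 against 53, 45 and 34 counts (adjusted p = 0.0829 from edgeR, and 0.0365 with library totals). Hsp60B and Hsp60D did not pass the filter on low counts.

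The cytosolic Hsp70 and Hsp90 machinery moved in both directions, with 3 of 8 genes lower and 4 higher (34.9% and 34.8% of all genes), or 2 lower and 6 higher with library totals (22.9% and 50.1% of all genes). Hsc70Cb (Hsp110), a nucleotide exchange factor of Hsp70, changed by −1.33, and Hop, which links Hsp70 to Hsp90, by −1.14. DnaJ-1, an Hsp40 inducible by heat, rose by 1.81, and CHIP, a ubiquitin ligase that binds Hsp70, by 0.28. The call of CHIP was lost without wt replicate 1 (0.23), wt replicate 2 (0.20) or CG1603PBac replicate 3 (0.23). The summed level of this list was mostly that of Hsc70-4, a constitutive Hsp70 (59.2% of it in wt, log2 change 0.26), and Hsp83, the fly Hsp90 (31.6% in wt, log2 change −0.12, turning to 0.27 with library totals). The ratio of summed CCT to that sum was 0.376 times as high in the mutant as in wt, with no overlap (log2 difference −1.41, exact p = 0.1).

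Marker lists of tissues and of dividing cells differed between the same libraries, and their part in the fall of CCT was not tested. Over all genes tested, 34.9% were lower and 34.8% higher with TMM, or 22.9% and 50.1% with library totals. All 14 muscle genes were lower (13 with library totals, when sls was higher at 0.30, and its call was lost without any 1 of 3 libraries, wt replicate 1 and CG1603PBac replicates 2 and 3), and their summed level went from between 73024 and 78269 CPM in wt to between 27976 and 28087 CPM in the mutant. Outside the actins, the listed extremes were TpnC47D (−1.99), Mf (−0.82) and sls (−0.09). With the exon-length trend removed, Mf had −1.17 and sls −1.45. All 15 genes of DNA replication were lower, from a summed 697 to 717 CPM to 158 to 162 CPM, with Orc1 at −3.33, PCNA at −2.92, Mcm6 at −1.53 and DNApol-delta, whose call was lost with library totals (−0.13) and without CG1603PBac replicate 3 (−0.35), at −0.53. All 10 neuronal genes were higher, from a summed 383 to 432 CPM to 1066 to 1103 CPM, with cac (2.22) and VAChT (2.14) at one end and nSyb (1.30) and Syx1A (0.74) at the other. The fat body list went from a summed 2074 to 2437 CPM to 509 to 569 CPM, and 96.5% of its wt level was 1 gene, Rfabg (apolipophorin, −2.06). Lsp1beta (−2.09) was also lower, and the other 3 tested genes did not pass. These were Lsp1gamma (−0.07), Lsp1alpha with 2, 0 and 50 counts in wt and 97, 82 and 19 in the mutant, and Fbp2 with 0, 0 and 15 against 15, 12 and 12 counts. Fbp1 was at 0 in every library and Lsp2 was too low to be tested. Without wt replicate 3, which held nearly all of their wt counts, Lsp1alpha and Fbp2 passed as higher (adjusted p = 0.000421 and 0.0148 in edgeR). Hemocyte genes had a summed 243 to 252 CPM in wt and 298 to 310 CPM in the mutant, with NimC1 (1.29) and Hml (0.43) higher, Pxn (−0.66) lower, and Sr-CI (0.15), srp (−0.14) and eater (−0.63) not passed. Larval cuticle genes (3 of 7 lower, 3 higher, near the shares over all genes) had a summed 318 to 333 CPM in wt and 316 to 324 CPM in the mutant. They ran from Lcp65Ae (−2.25) and Lcp4 (−1.81) to Lcp65Ac (0.66) and TwdlE (0.97). Of these lists, summed CCT was set against DNA replication and muscle genes only, both with lower sums in the mutant. The ratio was 1.81 times as high in the mutant as in wt for DNA replication genes and 1.10 times as high for muscle genes. Neither ratio overlapped between the genotypes (exact permutation test, p = 0.1 each). Act57B and Act87E are on both the muscle and the actin list, so the ratios to those lists are not separate results.

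By closeness over the 6 libraries, the genes most like CCT were vig, CG11334, Gapdh1, PyK and CG9911 (ERp44). The measure was the root mean square distance of a gene's centred log2 CPM from the mean centred profile of the 8 subunits, taken over 6358 other genes with a mean of at least 20 CPM. The distances were 0.014 for vig, which encodes an RNA-binding protein, 0.018 for CG11334, 0.024 for the glycolytic gene Gapdh1, 0.027 for PyK (pyruvate kinase) and 0.028 for CG9911. The subunits themselves lay between 0.023 (CCT6) and 0.142 (CCT2) from their own mean. The log2 fold changes of the closest genes ran from −1.29 for vig to −1.24 for CG9911, which follows from how they were picked. A change within the range of the subunits was found for 788 genes (6.97% of those tested).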

How the data were processed

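The authors used FastQC for read quality, STAR for alignment to dm6 and HTSeq to count reads in genes. What they deposited are raw counts for each sample, neither normalized nor pooled. The annotation version and strand setting of the counting are not given in the sources used here. HTSeq categories that name no gene entered neither library sizes nor tests, and reads without a feature made up 2.40 ± 0.190% of the total in wt and 3.83 ± 0.195% in mutant libraries (SD, n = 3).

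TMM scaling and the robust quasi-likelihood F test of edgeR 4.0.16 (R 4.3.3, no replicate block) were applied after filterByExpr (minimum count 10, minimum total 15), with Benjamini-Hochberg adjustment over the 11306 genes tested and a threshold of 0.05. All 8 subunits passed the filter. The SE is the log2 fold change divided by the root of F. The p-values rest on the spread between these 6 libraries, with the spread of each gene drawn toward a trend over all genes tested. Exon and coding lengths, overlaps and neighbours came from Ensembl release 115 in dm6 coordinates. The genes named are the 8 subunits, CG1603, all members of fixed lists of up to 7 genes, the 2 highest and 2 lowest of longer lists, and the 5 closest profiles. Genes outside that rule were named for abundance or position or as members of a list after their values were seen. The members and lists were chosen with earlier results of these data known, and the ratios to other lists, the chromosome arms and the neighbours were added after seeing the data. Alternatives were DESeq2 1.42.0, its size factors in edgeR, library totals, limma-voom (limma 3.58.1), other filters, a replicate block, removal of the exon-length trend (loess, span 0.5) and leaving out each library.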

Additional observations from a re-analysis of the deposited data

How the results depend on the processing

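All 8 subunits passed as lower in CG1603PBac under every alternative with a test. With library totals only, the subunits lower by more than 2-fold numbered 1 in place of 8 and the median log2 fold change was −0.89 in place of −1.28. The median was −1.22 with the exon-length trend removed. With each library left out in turn it was between −1.35 and −1.26, and 7 or 8 subunits were lower by more than 2-fold. In their ratio to the complex 5 or 6 were then apart from wt. That count does not check the result, because leaving out a library keeps the other ratios as they are and cannot lower it. Same-numbered libraries did not deviate together (correlations of 0.006, −0.020 and −0.008), so no effect shared by number was seen. The labels do not say whether samples with the same number were handled together. A replicate block gave a median of −1.28 and 8 lower subunits, and 7741 calls over all genes in place of 7882. With library totals 14 genes of the lists turned from negative to positive, 5 of them past the test both ways, Hsp60 (0.18), Hsp83 (0.27), Rack1 (0.25), tws (0.23) and sls (0.30). The others were CG7261 (0.085), CG1890 (0.26), Tbce (0.34), gammaTub23C (0.21), Gbeta13F (0.39), raptor (0.26), Droj2 (0.34), Lsp1gamma (0.32) and srp (0.26). Of the genes named by the rule, S6k (−0.11) and Hml (−0.34) turned with the length trend removed. Others moved without turning, among them sls (−1.45), Mf (−1.17), cac (1.44), VAChT (1.63) and Rfabg (−2.83). The causes were not tested. Depth limited the subunits little, with at least 1904 counts each in every library. It limited alphaTub67C, Hsp60C and CG9920, which had at most 58. Other tested genes of the lists were as low, among them betaTub85D (at most 20) and gammaTub37C (at most 45). A search of promoters for motifs was planned and not run.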

Other observations

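Genes of growth control gave values of both signs. Of 5 such genes 4 were higher in CG1603PBac larvae and 1 was lower. Over all genes 34.8% were higher and 34.9% lower, or 50.1% and 22.9% with library totals. The Myc gene dm went from 70.6 ± 1.36 to 209 ± 7.96 CPM (SD, n = 3). On the log2 scale this was 1.56 ± 0.06 (SE; edgeR, adjusted p = 6.31e-16), or 0.91 with the exon-length trend removed. Its partner gene Max (0.45), the antagonist gene Mnt (0.50) and S6k, a kinase gene of the TOR pathway (0.20, turning to −0.11 with that trend removed), were higher, and Tor was lower (−0.51), a call that was lost with library totals (−0.12).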
